A study of Mus musculus with 6 samples.

Results

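The genes described here are 10 enzymes of 3 side routes of glucose metabolism, chosen by name for their place in those routes. Akr1b3 and Sord belong to the polyol route, and Akr1b8, of the same subfamily as Akr1b3, was listed with them. Gfpt1, Gfpt2, Gnpnat1, Pgm3 and Uap1 belong to the hexosamine route, with Ogt as the enzyme that uses its product. Glo1 belongs to the glyoxalase route. All 10 were found among the 55487 gene identifiers of the count table, and all 10 were among the 19015 genes that passed the filter on low counts and were tested. RNA-sequencing was available for 6 samples of cells labelled as endothelial cells (ECs) from the skin of C57BL/6 mice. For 48 hours, 3 samples received medium with 5 mmol/L glucose, called normal glucose, and the other 3 medium with 20 mmol/L, called high glucose. Cells came from 4 to 6 mice aged 2 to 3 months and were enriched with beads against CD31, so mice were pooled. The study's figure legends count the samples of a group as mice, whereas the labels describe cells from several mice and do not say which mice or isolations each sample came from. The p-values measure the spread between these samples, which may be in part technical.

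The polyol route reduces glucose to sorbitol with aldose reductase and then oxidizes sorbitol to fructose with sorbitol dehydrogenase, and it is known for its part in diabetic complications in nerve, lens and vessels. The hexosamine route turns a small share of fructose 6-phosphate into UDP-GlcNAc, the sugar donor for N-glycans, hyaluronan and the single GlcNAc residues that Ogt places on nuclear and cytosolic proteins. The glyoxalase route removes methylglyoxal, a reactive by-product of glycolysis that modifies proteins.

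Library totals lay between 120192466 and 146881356 counts. The intervals of fold changes given below include the spread between samples. A floor of 3 counts corresponded to 0.0204 to 0.0250 CPM (counts scaled to a common library total), and such a floor covers counting error only. Each member held between 1532 and 17864 counts in every sample, far above that floor. The labelled cell type was checked against its markers. The summed level of 10 endothelial markers was 19.8 to 20.8 CPM in normal glucose and 18.7 to 19.2 CPM in high glucose. Of the 8 tested markers, 2 were called lower and 2 called higher. Tie1, which was not tested, was at 0 in all 3 high glucose samples and in 2 of the 3 normal ones. Pecam1, which encodes CD31, did not exceed 0.152 CPM in any sample. The summed level of 10 fibroblast markers was 38881 to 42052 CPM in normal glucose and 71384 to 76384 CPM in high glucose, with 9 called higher and Thy1 called lower. Col3a1 alone made up 11670 to 12810 CPM in normal and 30996 to 34290 CPM in high glucose. Mural cell markers summed to between 516 and 618 CPM over all samples, of which Pdgfrb alone made up 494 to 593 CPM. Of these markers, Cspg4 and Des were called lower and Rgs5 higher. Macrophage markers summed to 17.3 to 19.4 CPM in normal and 26.8 to 27.7 CPM in high glucose. Cd14 alone made up 8.95 to 10.1 CPM in normal and 21.1 to 21.2 CPM in high glucose. Of the macrophage markers, Cd14 was called higher and Csf1r and Cd68 lower, and Ptprc and Adgre1 were at 0 in all high glucose samples and in 2 of the 3 normal ones. Keratinocyte markers summed to between 2.10 and 2.97 CPM, of which Krt10 alone made up 1.95 to 2.84 CPM. Krt1 and Cdh1 were at 0 in all high glucose samples and in 2 of the 3 normal ones. Krt5 was called higher, from 2 counts in each normal glucose sample to 12 to 23 counts in high glucose. Krt14 had 0 to 2 counts in normal and 9 to 35 in high glucose. The data therefore go against the label, and the samples are named below by their glucose level alone. The part of the fibroblast genes in the results was not tested, and in bulk RNA fewer cells of a type and less RNA per cell cannot be told apart.

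Of the 10 members, 4 were lower in high glucose, 1 was higher and 5 did not pass the test. The quasi-likelihood test of edgeR, adjusted by Benjamini-Hochberg over all tested genes and read at an adjusted p under 0.05, called 31.4% of all tested genes, 14.5% lower and 16.9% higher. All 3 members listed under the polyol route fell. Within the hexosamine route Gfpt2 rose, Pgm3 fell, and Gfpt1, Gnpnat1 and Uap1 did not pass, nor did Ogt or Glo1. The median log2 fold change of the members was -0.087, against 0.0062 for all tested genes. The 5 called members were also the 5 whose groups did not overlap, and 46.4% of all tested genes had groups that did not overlap (21.3% with high glucose lower and 25.1% with it higher). With TMM scaling no member changed by as much as 1.5-fold, and the differences ran from Sord, which fell by 31.0%, to Gfpt2, which rose by 30.1%. Scaling by library size alone, without TMM factors, moved the median of all genes by -0.11 on the log2 scale and the lower genes from 46.2% to 72.9% of all calls, and upper quartile scaling moved them to 56.5%, while the same 5 members were called in the same directions under both. Scaled by library size alone, the log2 fold change of Sord was -0.65, which is past 1.5-fold.

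**Figure D1:**
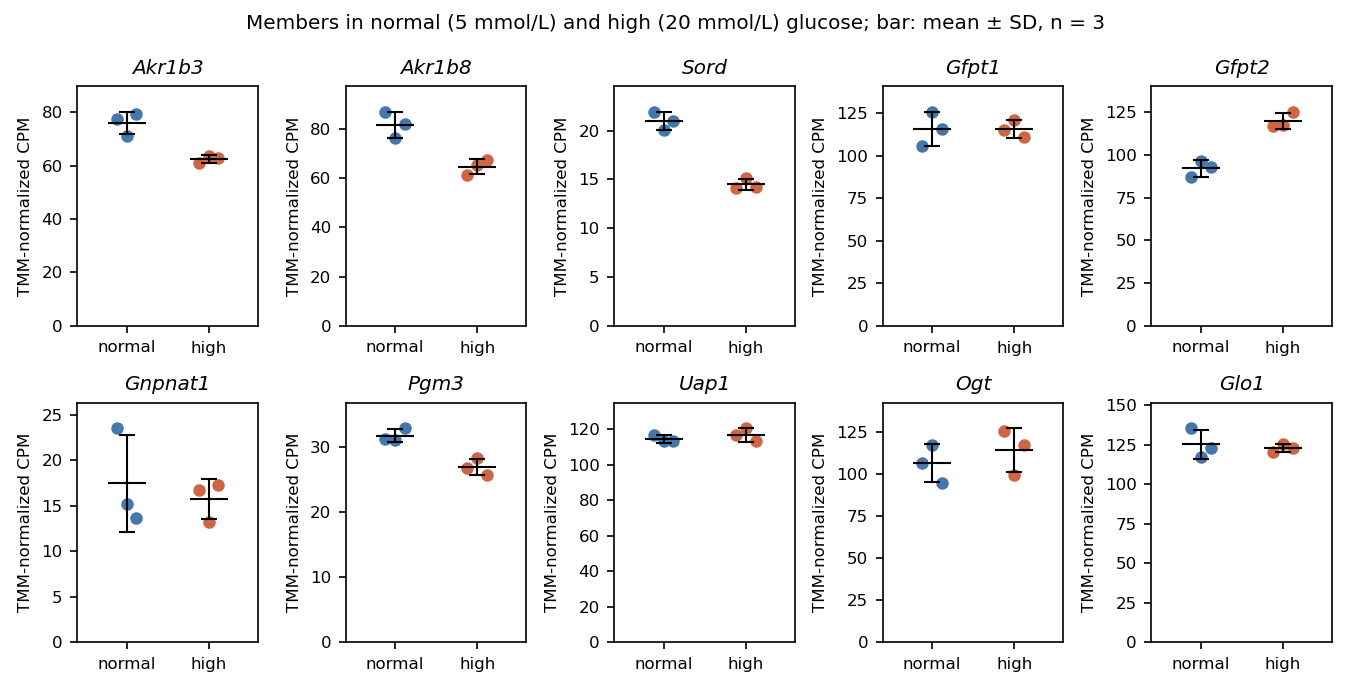
Each panel plots 1 enzyme, with TMM-normalized CPM from 0 on the vertical axis, 3 points for normal glucose (blue) and 3 for high glucose (orange), and bars for the mean ± SD. The groups stand apart for Akr1b3, Akr1b8, Sord and Pgm3, which are lower in high glucose, and for Gfpt2, which is higher, and they overlap for the other 5.

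The stretches upstream of 4 called members and of 2 partners are shown because these members differed in direction while their partners belong to the same route or gene cluster. They come from RefSeq's promoter table on GRCm38.p6, in which 8 of the 10 members have an entry, and each is the part of the 250 bases before the RefSeq start that lies outside the annotated gene. They are written in the direction of transcription, at chr6:34353896-34354118 (plus strand) for Akr1b8, chr6:34383997-34384217 (plus) for Akr1b10, chr2:122234589-122234748 (plus) for Sord, chr6:87042596-87042845 (plus) for Gfpt1, chr11:49793905-49794154 (plus) for Gfpt2 and chr9:86571843-86572092 (minus) for Pgm3. Capitals mark matches on either strand to the GC box GGGCGG or the CCAAT box CCAAT.
Akr1b8: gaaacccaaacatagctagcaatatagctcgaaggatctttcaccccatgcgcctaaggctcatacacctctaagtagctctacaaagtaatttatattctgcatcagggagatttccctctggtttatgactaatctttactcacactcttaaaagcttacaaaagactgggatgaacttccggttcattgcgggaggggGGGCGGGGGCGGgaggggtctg
Akr1b10: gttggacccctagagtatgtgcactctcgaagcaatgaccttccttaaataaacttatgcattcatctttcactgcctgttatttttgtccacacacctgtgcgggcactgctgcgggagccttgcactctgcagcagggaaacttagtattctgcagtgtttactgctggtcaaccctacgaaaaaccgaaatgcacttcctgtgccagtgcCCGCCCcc
Sord: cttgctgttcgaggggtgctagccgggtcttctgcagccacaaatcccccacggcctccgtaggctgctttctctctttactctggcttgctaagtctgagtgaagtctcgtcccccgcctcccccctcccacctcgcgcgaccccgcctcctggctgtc
Gfpt1: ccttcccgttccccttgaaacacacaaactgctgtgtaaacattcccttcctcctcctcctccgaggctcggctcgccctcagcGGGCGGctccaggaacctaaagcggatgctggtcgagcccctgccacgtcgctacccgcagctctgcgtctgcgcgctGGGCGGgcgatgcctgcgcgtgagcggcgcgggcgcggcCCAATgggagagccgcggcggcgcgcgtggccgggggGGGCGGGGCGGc
Gfpt2: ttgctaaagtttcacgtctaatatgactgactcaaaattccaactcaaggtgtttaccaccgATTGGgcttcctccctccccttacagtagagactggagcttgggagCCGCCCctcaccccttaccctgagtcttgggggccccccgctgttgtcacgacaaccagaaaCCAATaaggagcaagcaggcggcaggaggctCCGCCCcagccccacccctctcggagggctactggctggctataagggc
Pgm3: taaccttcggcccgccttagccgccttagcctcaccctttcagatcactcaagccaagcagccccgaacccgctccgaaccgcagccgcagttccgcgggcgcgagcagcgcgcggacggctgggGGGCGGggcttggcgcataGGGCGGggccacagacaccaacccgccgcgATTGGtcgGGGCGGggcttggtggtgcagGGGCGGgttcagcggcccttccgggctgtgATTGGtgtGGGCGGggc

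Over the 250 bases, Gfpt1 held 4 GC boxes, the last 2 of which share a base, and 1 CCAAT box, whereas Gfpt2 held 2 of each and Pgm3 held 5 GC boxes and 2 CCAAT boxes. Akr1b8 held 2 GC boxes, Akr1b10 held 1, and the 2 of Sord lie in the stretch within the annotated gene that is not printed. Across all 32817 windows of that length, 32.7% held the GC box and 33.8% the CCAAT box. None of the 6 windows held the E-box CACGTG (6.02% of all windows), the antioxidant response element core TGACNNNGC (10.2%) or the tonicity enhancer core TGGAAA (18.6%), which says only that these letters are not in these windows.

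Among the members listed under the polyol route, the mRNAs of both aldo-keto reductases and of sorbitol dehydrogenase were lower in high glucose. Akr1b3 (ENSMUSG00000001642), the mouse aldose reductase, lies on chromosome 6 from 34302434 to 34317478 (GRCm38). Its level was 77.4, 71.2 and 79.2 CPM in normal glucose and 60.9, 63.7 and 62.7 CPM in high glucose. Every high glucose sample lay below every normal glucose sample. The means were 75.9 ± 4.21 and 62.4 ± 1.37 CPM (SD, n = 3 each), a log2 fold change of -0.28 (SE 0.056, 95% interval -0.41 to -0.16), with an adjusted p of 0.0034 from edgeR's quasi-likelihood test. Akr1b8 (ENSMUSG00000029762), an aldo-keto reductase of the same subfamily that reduces a range of aldehydes, lies 36640 bases further along chromosome 6, from 34354119 to 34368463. It was at 86.8, 76.2 and 82.1 CPM in normal glucose and 61.5, 65.2 and 67.3 CPM in high glucose. Here too the groups did not overlap, and the log2 fold change was -0.34 (SE 0.062, 95% interval -0.48 to -0.20, edgeR adjusted p = 0.0023).

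Sord (ENSMUSG00000027227, chromosome 2 from 122234749 to 122265340), which oxidizes sorbitol to fructose, had the largest fall among the members. Its level was 21.9, 20.1 and 20.96 CPM in normal glucose and 14.1, 15.1 and 14.2 CPM in high glucose, again without overlap. The mean fell by 31.0%, a log2 fold change of -0.53 (SE 0.061, 95% interval -0.67 to -0.40, edgeR adjusted p = 8.9e-05). Even so, 1284 genes called lower had larger falls. Stretches of at least 200 bases with at least 95% identity to these enzymes occur elsewhere in the annotation. For Akr1b3 they include Gm38056, with 205 to 333 counts per sample, and for Sord Gm6652, with 21 to 60. Akr1b8 shares 250 bases at 95.6% identity with Akr1b10. Adding the pseudogene and unclassified copies to their parent genes changed no call. Akr1b10 is protein-coding and was not added to Akr1b8, so that sum cannot decide whether reads shared by this pair matter.

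The other genes of the polyol and fructose route were 6 in the list, of which 4 were tested and 2 were called, both lower. That is 50% of 4 genes, against 31.4% of all tested genes called and 14.5% called lower. Akr1b10, another aldo-keto reductase of the cluster, was at 29.9, 26.4 and 26.3 CPM in normal glucose and 17.4, 17.1 and 16.9 CPM in high glucose. Its log2 fold change of -0.68 (edgeR adjusted p = 2.2e-05) was the largest fall of the 3 tested genes of the cluster. The fourth gene, Akr1b7, had between 0 and 10 counts per sample and was not tested. The cluster spans 121 kb on chromosome 6 from the start of Akr1b3 to the end of Akr1b7. Khk, the ketohexokinase that phosphorylates fructose, was at 20.7 ± 1.53 CPM in normal and 17.6 ± 0.395 CPM in high glucose (-0.24 on the log2 scale, edgeR adjusted p = 0.0203), a call that was lost in 3 of the 6 fits that each left out a sample, namely normal glucose replicate 3 (adjusted p = 0.0641) and high glucose replicates 1 (0.0564) and 2 (0.0541). Akr1a1, which reduces aldehydes more broadly, was at 501.9 ± 41.4 and 455.0 ± 8.72 CPM and did not pass, with a 95% interval of its log2 fold change from -0.28 to 0.00062.

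At the first step of the hexosamine route, Gfpt2 rose and its paralog Gfpt1 did not pass the test. Gfpt1 and Gfpt2 both encode glutamine:fructose-6-phosphate transaminase, the rate-limiting step of the route. Gfpt2 (ENSMUSG00000020363, chromosome 11 from 49794178 to 49838613) was at 86.9, 96.7 and 93.0 CPM in normal glucose and 117, 117 and 125 CPM in high glucose. All 3 high glucose samples lay above all 3 normal glucose samples, with means of 119.98 ± 4.64 and 92.2 ± 4.94 CPM. The log2 fold change was 0.38 (SE 0.058, 95% interval 0.25 to 0.51, edgeR adjusted p = 6.5e-04). Gfpt1 (ENSMUSG00000029992, chromosome 6 from 87042846 to 87092197) was at 106, 126 and 116 CPM in normal glucose and 115, 121 and 111 CPM in high glucose, so that the high glucose samples lay within the range of the normal ones. Its log2 fold change was -0.00079 with a 95% interval of -0.15 to 0.15 (edgeR adjusted p = 0.995), and 1598 genes called higher had larger rises than Gfpt2.

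The paralogs were then set against each other within each sample, where the scaling between samples has no part. Per kilobase of transcript, Gfpt2 made up 63.5%, 61.9% and 63.0% of the sum of both in normal glucose, against 68.2%, 67.3% and 70.5% in high glucose. The groups did not overlap, and the mean share was 5.88 percentage points higher in high glucose (62.8% ± 0.806 against 68.7% ± 1.67, SD, n = 3 each). The 2-sided exact permutation test gave p = 0.1, the smallest value 3 samples against 3 allow, and 0.3 after adjustment over the 3 shares compared. The level of the Gfpt2 share depends on the length used. Its means in normal and high glucose were 59.0% and 65.1% over all annotated exons joined. Without a length they were 44.4% and 50.9%, and the groups did not overlap in either. The share of Akr1b8 in Akr1b3 plus Akr1b8 was 52.4% ± 0.977 in normal and 51.4% ± 0.822 in high glucose, and these groups overlapped (exact permutation p = 0.3, adjusted 0.3, n = 3 each). The level of that share depends on the length used, and over all annotated exons joined it was 85.7% in normal and 85.3% in high glucose.

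**Figure D2:**
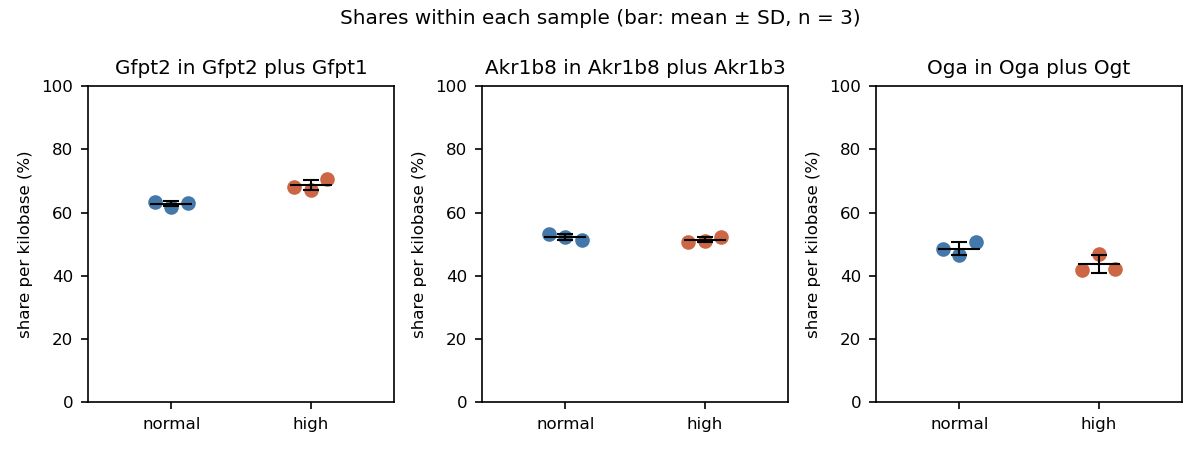
Shares per kilobase within each sample, in percent on an axis from 0 to 100, with 3 points per group and bars for the mean ± SD. The Gfpt2 share of 67.3% to 70.5% in high glucose lies above the 61.9% to 63.5% in normal glucose, whereas the groups overlap for Akr1b8 in Akr1b3 plus Akr1b8 and for Oga in Ogt plus Oga.

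Of the later steps, Pgm3 fell, and Gnpnat1 and Uap1 did not pass the test. Gnpnat1 (ENSMUSG00000037722, chromosome 14 from 45376334 to 45404913) acetylates glucosamine 6-phosphate. It was at 23.5, 15.2 and 13.6 CPM in normal glucose and 16.7, 13.2 and 17.3 CPM in high glucose. The groups overlapped, the spread relative to the mean was the widest of the members, and the log2 fold change of -0.15 (95% interval -0.55 to 0.25, edgeR adjusted p = 0.569) turned to 0.11 without normal glucose replicate 1. Pgm3 (ENSMUSG00000056131, chromosome 9 from 86554377 to 86571842), the mutase that makes GlcNAc 1-phosphate, was at 31.2, 31.0 and 32.8 CPM in normal glucose and 26.7, 28.2 and 25.7 CPM in high glucose. It fell without overlap, by a log2 fold change of -0.24 (SE 0.056, 95% interval -0.36 to -0.11, edgeR adjusted p = 0.0091). Uap1 (ENSMUSG00000026670, chromosome 1 from 170141938 to 170174957), which joins GlcNAc 1-phosphate to UTP to give UDP-GlcNAc, was at 117, 113 and 113 CPM in normal and 116, 120 and 113 CPM in high glucose. These overlapped, with a log2 fold change of 0.028 (95% interval -0.083 to 0.14, edgeR adjusted p = 0.713) that was -0.087 when scaled by library size alone and -0.015 with upper quartile scaling.

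Pgm3 and Gnpnat1 each share exon sequence with a gene on the opposite strand, and without a stated strand setting the reads of such partners cannot be told apart. Exons of Pgm3 overlap 1270 bases of Dop1a, a gene of membrane traffic. Dop1a was higher in high glucose (23.9 ± 4.19 against 31.5 ± 0.492 CPM, 0.40 on the log2 scale, edgeR adjusted p = 0.0156), a call that was lost when normal glucose replicate 3 (adjusted p = 0.0605) or any of the high glucose replicates 1, 2 and 3 (0.0647, 0.0514 and 0.0559) was left out, and when the counts were unfiltered (0.0593) or scaled by library size alone (0.0670). Summed with Dop1a, Pgm3 was at 50.8, 58.9 and 56.9 CPM in normal and 58.7, 59.2 and 57.2 CPM in high glucose. The sum overlapped between groups, and its log2 fold change was 0.071 (edgeR adjusted p = 0.425). This sum holds all counts of Dop1a, not only those of the shared bases, and Dop1a was itself higher. It therefore cannot decide whether the call for Pgm3 depends on the shared reads. Within the pair, the share of Pgm3 was 61.4%, 52.6% and 57.7% in normal glucose, against 45.5%, 47.7% and 45.0% in high glucose. Exons of Gnpnat1 overlap 3878 bases of Styx, which encodes a phosphatase-like protein without catalytic activity. Its share of that pair ranged from 31.4% to 51.3% over the 6 samples, and the sum had a log2 fold change of -0.15 (SE 0.085, edgeR adjusted p = 0.221). Gnpnat1 also has a near-identical copy, Gm14698, which matches 552 bases at 99.8% identity and held 585 to 797 counts per sample.

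**Figure D3:**
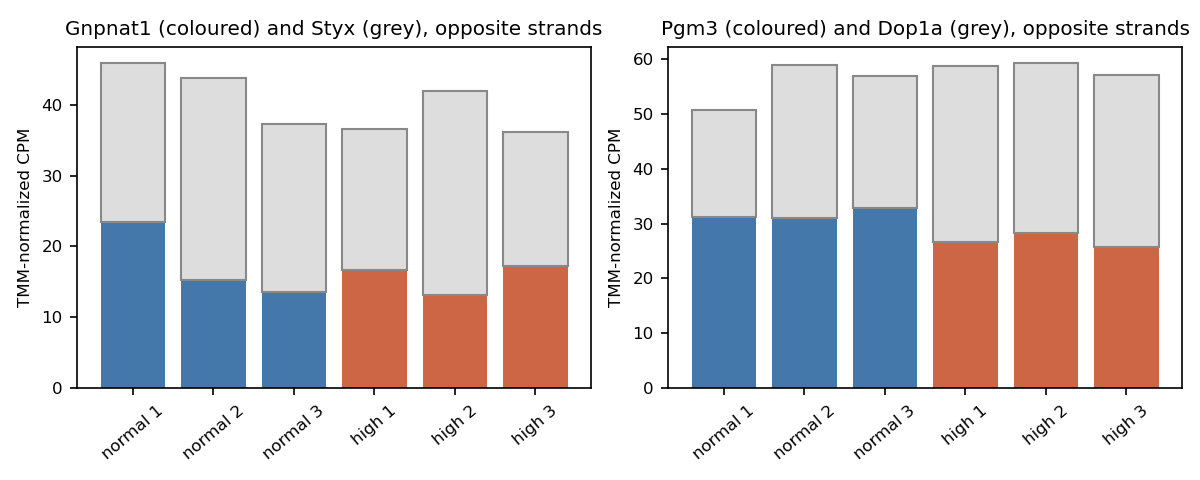
Stacked bars of TMM-normalized CPM from 0 for each of the 6 samples, with the enzyme in colour (blue for normal and orange for high glucose) and the gene on the opposite strand in grey. The Pgm3 part is smaller in high glucose. Its sum with all counts of Dop1a overlaps between groups, at 50.8 to 58.9 CPM in normal and 57.2 to 59.2 CPM in high glucose. The sum of Gnpnat1 and Styx overlaps as well.

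The enzymes that place and remove O-GlcNAc were measured next. Ogt (ENSMUSG00000034160, chromosome X from 101640060 to 101684351), the transferase, was at 107, 117 and 94.7 CPM in normal glucose and 125, 99.5 and 117 CPM in high glucose. The groups overlapped, with a log2 fold change of 0.10 and a 95% interval of -0.11 to 0.31 (edgeR adjusted p = 0.453), and the sign turned to -0.014 when scaled by library size alone. Oga, the hydrolase that removes O-GlcNAc and is annotated as Mgea5, was at 94.1, 96.2 and 91.8 CPM in normal glucose and 84.5, 83.0 and 80.2 CPM in high glucose. It fell without overlap (-0.19 on the log2 scale, edgeR adjusted p = 0.0163), though not past the threshold without high glucose replicate 3 (adjusted p = 0.0776). The share of Oga in Ogt plus Oga per kilobase was 48.6% ± 2.07 in normal and 43.7% ± 2.91 in high glucose, and it overlapped between groups (exact permutation p = 0.2, adjusted 0.3, n = 3 each). Eogt, which adds GlcNAc to extracellular domains, had an adjusted p of 0.0465 (log2 fold change -0.24, edgeR) and passed in only 1 of the 6 fits that each left out a sample, the one without normal glucose replicate 1, nor did it pass without the filter on low counts (adjusted p = 0.0824).

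In the glyoxalase route, Glo1 (ENSMUSG00000024026, chromosome 17 from 30584936 to 30626871), which acts on the adduct of methylglyoxal and glutathione, was at 135, 118 and 123 CPM in normal glucose and 121, 126 and 123 CPM in high glucose. The high glucose samples lay within the range of the normal ones. The log2 fold change was -0.026 with a 95% interval of -0.16 to 0.11 (edgeR adjusted p = 0.783). After removal of a GC and length trend it was -0.21, outside that interval, and still did not pass (adjusted p = 0.101). A processed copy, Gm13443, with 96% identity over 575 bases, held 914 to 1007 counts per sample against at least 14599 for Glo1. Hagh, which completes the detoxification to lactate, was at 14.7, 13.7 and 15.6 CPM in normal and 16.3, 16.6 and 17.1 CPM in high glucose. Its log2 fold change of 0.19 did not pass (edgeR adjusted p = 0.0524). Of 18 alternative fits, Hagh passed in 3. These were the fits with a GC and length trend removed (adjusted p = 0.0055 and 0.0136) and the fit without normal glucose replicate 3 (0.0426). It did not pass in the other 15. Scaled by library size alone, its log2 fold change was 0.072 (adjusted p = 0.406). Of the 8 listed genes of this route and of protein deglycation, 2 were called, both lower and both at low levels. That is 25%, against 31.4% of all tested genes called and 14.5% called lower. Ldhd, a D-lactate dehydrogenase, went from 2.22 ± 0.178 to 1.52 ± 0.107 CPM (-0.55 on the log2 scale, edgeR adjusted p = 0.0047). Fn3k, which phosphorylates fructosamines, held 14 to 44 counts per sample (-1.02 on the log2 scale, adjusted p = 0.0194), and its call was lost without normal glucose replicate 3 (0.0760) or without high glucose replicate 2 (0.0595) or 3 (0.0765).

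Around these members, 37 further genes of the routes were listed by role, of which 35 were tested, 13 were lower, 1 was higher and 21 did not pass. Their median log2 fold change was -0.11, and 40% were called, against 31.4% of all tested genes (14.5% lower and 16.9% higher). Scaled by library size alone, 21 were lower and 0 higher, while of all 19015 tested genes 4884 were lower and 1819 higher. The group with the most calls was amino sugar salvage and sialic acid synthesis, with 7 of 11 genes (63.6%) lower and 0 higher. Of all tested genes, 14.5% were called lower. Uap1l1, a paralog of Uap1, was at 88.5, 79.1 and 87.9 CPM in normal glucose and 51.4, 50.2 and 48.7 CPM in high glucose. Its log2 fold change of -0.77 (edgeR adjusted p = 6.0e-06) stood beside 0.028 for Uap1 itself. Gnpda1, the deaminase that returns glucosamine 6-phosphate to fructose 6-phosphate and so runs opposite to Gfpt1 and Gfpt2, was at 48.3, 47.4 and 46.2 CPM in normal and 31.0, 31.2 and 30.8 CPM in high glucose. None of its samples overlapped between groups, and the log2 fold change was -0.61 (edgeR adjusted p = 8.0e-06).

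Nagk, the kinase that salvages free GlcNAc, fell from 53.7 ± 4.03 to 42.3 ± 1.41 CPM (-0.34 on the log2 scale, edgeR adjusted p = 0.0022). Amdhd2, which deacetylates GlcNAc 6-phosphate, had the same log2 fold change of -0.34 (adjusted p = 0.0039). Renbp, the GlcNAc 2-epimerase, fell from 49.97 ± 4.46 to 34.4 ± 0.983 CPM (-0.54, adjusted p = 1.9e-04). Nans, the sialic acid synthase, differed by -0.17 on the log2 scale (adjusted p = 0.0335), a call lost when normal glucose replicate 3 (0.0953) or any of the high glucose replicates 1, 2 and 3 (0.0981, 0.0634 and 0.0787) was left out. These adjusted p values are from edgeR's quasi-likelihood test. Among 10 genes of UDP-GlcNAc transport and N-glycan branching, 0 were lower and 1 was higher, which is 10% called against 31.4% of all tested genes. The 1 called gene was Mgat3, which adds the bisecting GlcNAc, at 37.6 ± 2.32 CPM in normal and 45.0 ± 0.675 CPM in high glucose (0.26 on the log2 scale, edgeR adjusted p = 0.0065), a call that was lost when scaled by library size alone (adjusted p = 0.0742).

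**Figure D4:**
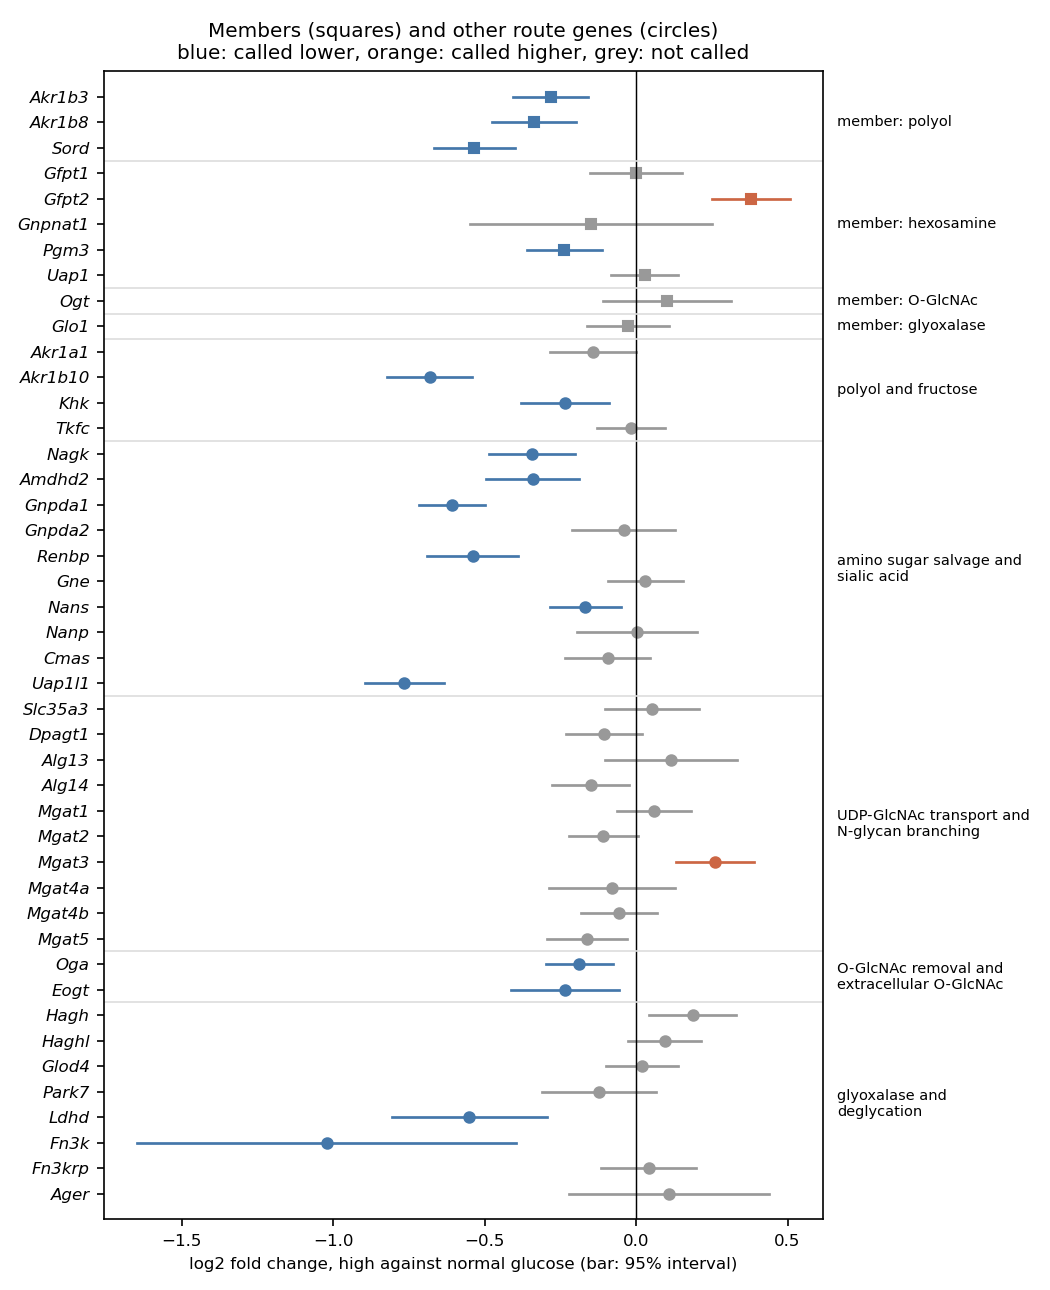
Log2 fold changes of high against normal glucose on the horizontal axis, with 95% intervals, for the 10 members (squares) and 34 of the other tested genes of the routes (circles), grouped by role. Blue marks genes called lower, orange higher and grey not called, and all 3 polyol members are blue.

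Levels of the members were compared with each other only as CPM per kilobase of the longest transcript paired with a RefSeq entry. In normal glucose the order of the mean levels was Glo1 (140.0), Akr1b8 (60.2), Akr1b3 (54.7), Uap1 (49.5), Gfpt2 (31.3), Ogt (19.7), Gfpt1 (18.6), Pgm3 (11.9), Sord (8.92) and Gnpnat1 (6.26). Neighbours in this order whose samples overlapped were Akr1b8 with Akr1b3 and Ogt with Gfpt1. In high glucose Uap1 (50.5) stood above Akr1b8 (47.6) and Akr1b3 (45.0), but the samples of Uap1 and Akr1b8 overlapped, as did those of Akr1b8 and Akr1b3, of Ogt and Gfpt1, and of Sord (6.16) and Gnpnat1 (5.64). The order depends on the length used: over all annotated exons joined, Akr1b8 came first, Glo1 had rank 6 and Akr1b3 rank 7 in both groups. With that length Akr1b3 was at 9.05 CPM per kilobase in normal glucose, next to Sord at 8.92, so the gap between these polyol enzymes depends on the length chosen. It was removed by the joined exon length of Akr1b3, 8384 bases against 1387 for the RefSeq transcript, whereas Sord had 2352 bases by both.

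**Figure D5:**
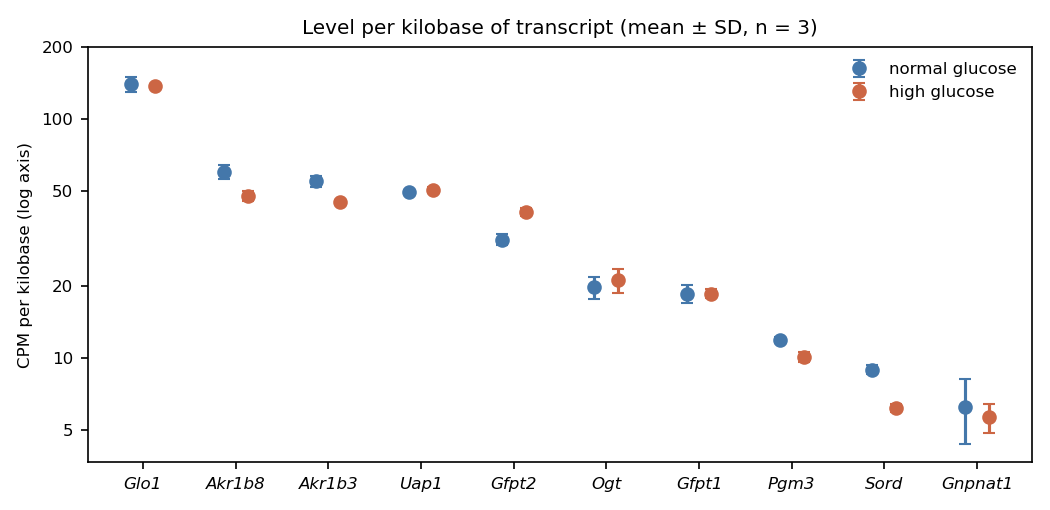
Levels in CPM per kilobase on a log axis, as mean ± SD of 3 samples, for normal (blue) and high glucose (orange), ordered by the normal glucose mean. Glo1 is highest at 140.0 and Gnpnat1 lowest at 6.26, and the groups stand apart for Akr1b8, Akr1b3, Gfpt2, Pgm3 and Sord.

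The genes whose 6 log2 CPM values, centred on their mean, differed least from those of the member with the largest rise and of the member with the largest fall were then listed. For Gfpt2 they were Ino80 (root mean square difference 0.014), Tnfrsf1b (0.019) and Tmem8 (0.026), with log2 fold changes of 0.38, 0.36 and 0.38. For Sord they were Layn (0.026), Anxa5 (0.030) and Lgals3 (0.031), with log2 fold changes of -0.50, -0.53 and -0.51. Over 6 samples in 2 groups, this likeness includes the difference between the groups itself.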

How the data were processed

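Polyadenylated RNA of 6 samples was sequenced. After trimming (Trimmomatic) and alignment to GRCm38 (HISAT2), the authors counted reads per gene with StringTie and deposited whole-number counts that were not normalized. Versions, annotation release and strand setting are not given in the sources used here, and the labels and the methods name different RNA kits and sequencing platforms. Groups and replicate numbers come from the titles.

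All 6 samples entered 1 fit in edgeR 4.0.16 (R 4.3.3). Low counts were removed by filterByExpr, with a minimum of 10 per sample and 15 in total, libraries were scaled by TMM, and p-values of the quasi-likelihood test were adjusted by Benjamini-Hochberg over 19015 genes. Genes with an adjusted p under 0.05 were called. CPM are TMM-normalized. Positions come from GENCODE M21 and identity to copies from BLAST 2.17.0. Symbols were matched for 55227 identifiers, and the other 260 held 0.0069% of the counts. The steps were tested on simulated data. Library totals were 120192466 to 146881356 counts, and the biological coefficient of variation was 8.44%. No 2 replicates agreed within sampling noise (lowest chi-square per degree of freedom 9.64).

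The members, the gene lists and the tests were chosen with earlier results of these data known. Named genes are all members, listed genes that passed or are direct partners of a member, the 3 genes most like the largest rise and fall, and genes overlapping or copying a member. Akr1a1 and the single markers were chosen after their values were seen. Alternatives were other normalizations, filters, tests (likelihood ratio, DESeq2 1.42.0), thresholds, halved counts, a GC and length trend removed with mgcv 1.9.3, the replicate block and each sample left out. Sums with copies, sums with opposite-strand genes and the joined exon length were added after seeing the data. No protein sequence was used here. For 1 gene that the counts include, values are not reported here.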

Additional observations from a re-analysis of the deposited data

How the results depend on the processing

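Akr1b3, Akr1b8, Sord and Gfpt2 passed the threshold in their direction in all 18 alternative fits, with log2 fold changes of -0.40 to -0.26, -0.45 to -0.28, -0.65 to -0.52 and 0.26 to 0.40. Pgm3 did so in 17, with adjusted p up to 0.0498 when a sample was left out. The exception was its sum with all counts of Dop1a (0.071), which includes the rise of Dop1a and so cannot decide the call. With TMM scaling and a minimum of 1.5-fold, 0 members were lower and 0 higher.

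Among members that did not pass, the sign turned for Gfpt1 without normal glucose replicate 2 (0.052), without high glucose replicate 3 (0.012) and with the replicate block (0.0020), for Gnpnat1 (0.11) and Glo1 (0.016) without normal glucose replicate 1, for Uap1 with upper quartile scaling (-0.015), library size alone (-0.087) and without high glucose replicate 2 (-0.011), and for Ogt with library size alone (-0.014). None of these passed. With a sample left out, Gfpt1 ranged from -0.080 to 0.052, Gnpnat1 from -0.31 to 0.11, Uap1 from -0.011 to 0.033, Ogt from 0.0099 to 0.17 and Glo1 from -0.081 to 0.016. Removing the GC and length trend gave -0.073 for Gfpt1 and -0.21 for Glo1. These members held at least 1532 counts per sample.

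Of the other route genes, 21 were lower and 0 higher with library size alone, 8 lower at an adjusted p under 0.01, and 4 lower and 0 higher at 1.5-fold. Removing the GC and length trend gave 2 higher, with or without the block, as did leaving out normal glucose replicate 3 (samples left out: 9 to 16 lower, 1 to 2 higher). Over all genes, 2757 were lower and 3212 higher. Library size alone gave 4884 and 1819, an adjusted p under 0.01 gave 1671 and 1946, and 1.5-fold gave 1165 and 895. With a sample left out they ranged from 2048 to 3065 lower and 1988 to 3149 higher, with 2010 higher without high glucose replicate 1 and 1988 without replicate 3. The cause was not tested, except that stricter thresholds call fewer genes by construction.

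The share differences ranged from 4.96 to 6.58 points for Gfpt2, -1.41 to -0.44 for Akr1b8 and -6.61 to -3.86 for Oga with a sample left out.

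The labels give replicates 1 to 3 in both groups. Deviations of same-numbered samples correlated at -0.025, 0.0038 and 0.013, and 1 of the 3 numbers correlated best with itself. The labels name no isolation shared by same-numbered samples, and with 3 samples per group these correlations cannot exclude one. With the replicate block, 4 members were lower and 1 higher, 12 route genes lower and 1 higher (Nans had an adjusted p of 0.0553), and 2418 of all genes lower and 2909 higher.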
